A study of Mus musculus with 20 samples.

Results

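The genes described here are 10 genes of the autophagy machinery, Sqstm1, Map1lc3a, Map1lc3b, Gabarapl1, Becn1, Atg5, Atg7, Atg12, Ulk1 and Wipi1, chosen by name for their role in the pathway. All 10 were on the array, with 18 probes, among 27827 gene names and 41174 probes in all. RNA of mouse kidney was hybridised to 20 one-colour arrays, 4 in each of 5 groups of male C57BL/6 mice aged 8 to 12 weeks. Per the labels, Control mice had neither surgery nor treatment, so they were not sham-operated. IRI mice had both renal pedicles clamped for 45 min and the kidney was taken after 6 h of reperfusion. IRI+Hemin mice received Hemin at 25 mg/kg intraperitoneally 24 h before that surgery, and for Hemin mice the labels name the drug and no surgery. IPC+IRI mice had 15 min of ischemia 7 days before the same IRI. The labels do not say that each array held a separate animal, so the p-values measure the spread between arrays, which may be partly technical.

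Autophagy delivers cytoplasm, protein aggregates and damaged organelles to the lysosome inside a double-membraned vesicle, the autophagosome. The ULK1 kinase complex starts it, the phosphatidylinositol 3-kinase complex that holds Beclin 1 (Becn1) marks the membrane, and WIPI proteins bind that mark. A ubiquitin-like system that uses ATG7, ATG5 and ATG12 then attaches LC3 and GABARAP proteins (Map1lc3a, Map1lc3b, Gabarapl1) to lipid, and cargo receptors such as p62 (Sqstm1) link the cargo to them. In the kidney the pathway is best known from the proximal tubule, which depends on mitochondria and is sensitive to loss of blood flow. An mRNA level is not a measure of autophagic flux, and in RNA of whole tissue fewer cells of a type and less RNA per cell cannot be told apart.

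Of the 7 members with more than 1 probe, 4 are shown here by a probe within the coding sequence, set against the other probe below. These probes are shown because the members' values depended on which of them was read. Each is printed 5′ to 3′ in the sense of the mRNA, with its interval on mouse build mm9. Gabarapl1, Becn1 and Wipi1 probes cross an exon junction, since 60 bases of probe span a longer interval of the genome. No letters are capitalised, as no part of a probe is set apart.
Gabarapl1, chr6:129488695-129491167, plus strand: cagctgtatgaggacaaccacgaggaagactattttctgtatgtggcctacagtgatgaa
Map1lc3b, chr8:124119924-124119983, plus strand: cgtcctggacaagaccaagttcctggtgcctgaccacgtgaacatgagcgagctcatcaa
Becn1, chr11:101151771-101152713, minus strand: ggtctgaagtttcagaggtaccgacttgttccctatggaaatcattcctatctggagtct
Wipi1, chr11:109438963-109439619, minus strand: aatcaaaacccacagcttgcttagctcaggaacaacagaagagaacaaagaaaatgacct

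RefSeq promoter windows (build GRCm38.p6, 250 bases before to 50 after the start) of 7 of the 10 members were searched. On both strands, 4 motifs of factors linked to autophagy genes were looked for. The other members were not searched, so no count is given for all 10. The E-box CACGTG, the core of the element bound by TFEB and TFE3, was in 2 of the 7 windows and in 7.15% of all 32851 windows. The antioxidant response core TGACNNNGC was in 1 of 7 and in 12.4% of all windows. The forkhead motif GTAAACA and the ATF4 motif TGATGNAA were in 0 of 7, against 3.65% and 3.97% of all. The matches are printed with their surroundings in the sense of the gene, 30 bases each, with the motif in capitals. They describe these letters only, not binding.
Atg7, chr6:114670952-114670981: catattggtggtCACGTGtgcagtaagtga
Atg5, chr10:44268313-44268342: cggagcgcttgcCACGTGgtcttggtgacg
Map1lc3b, chr8:121590432-121590461: gcgagtcaccTGACTCGGCtgcggactgag

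All levels below are log2 of a gene's processed signal over its array's 75th percentile, so that 0 is the 75th percentile of the array and 1 unit is a doubling. A gene was called higher or lower at an adjusted p below 0.05 in limma over all gene names tested, with no fold cutoff. Between 57.4% and 67.4% of gene names were well above background on an array, and each member was so on all 20 arrays by at least 1 probe. All 4 arrays of a group shared a slide that held no other group, so the slide cannot be told apart from the group in any comparison. The Control and IRI slides were scanned on the same day, the IRI+Hemin slide on another, and the slides of IPC+IRI and Hemin on a later shared day. IRI vs Control was therefore the comparison of the study's design that lay within a scan day. The markers of tubule, collecting duct and podocyte were well above background on all arrays. The 9 leukocyte markers summed to 1.03 to 1.21 (log2) on the Control arrays and 1.06 to 1.66 with Hemin alone. The sum was 2.32 to 3.31 after IRI, 2.03 to 3.54 with Hemin before it and 2.93 to 4.41 with preconditioning before it. Their part in the members' differences was not tested. Hmox1, heme oxygenase 1, which Hemin was given to induce, read 0.93 to 2.11 in Control and 1.66 to 2.17 in Hemin, and that difference was not called (log2 fold change 0.56, SE 0.462, adjusted p = 0.36). It read 5.59 to 6.61 in IRI and 5.03 to 6.56 in IRI+Hemin (-0.24, SE 0.461, adjusted p = 0.704), which was not called either.

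**Figure D1:**
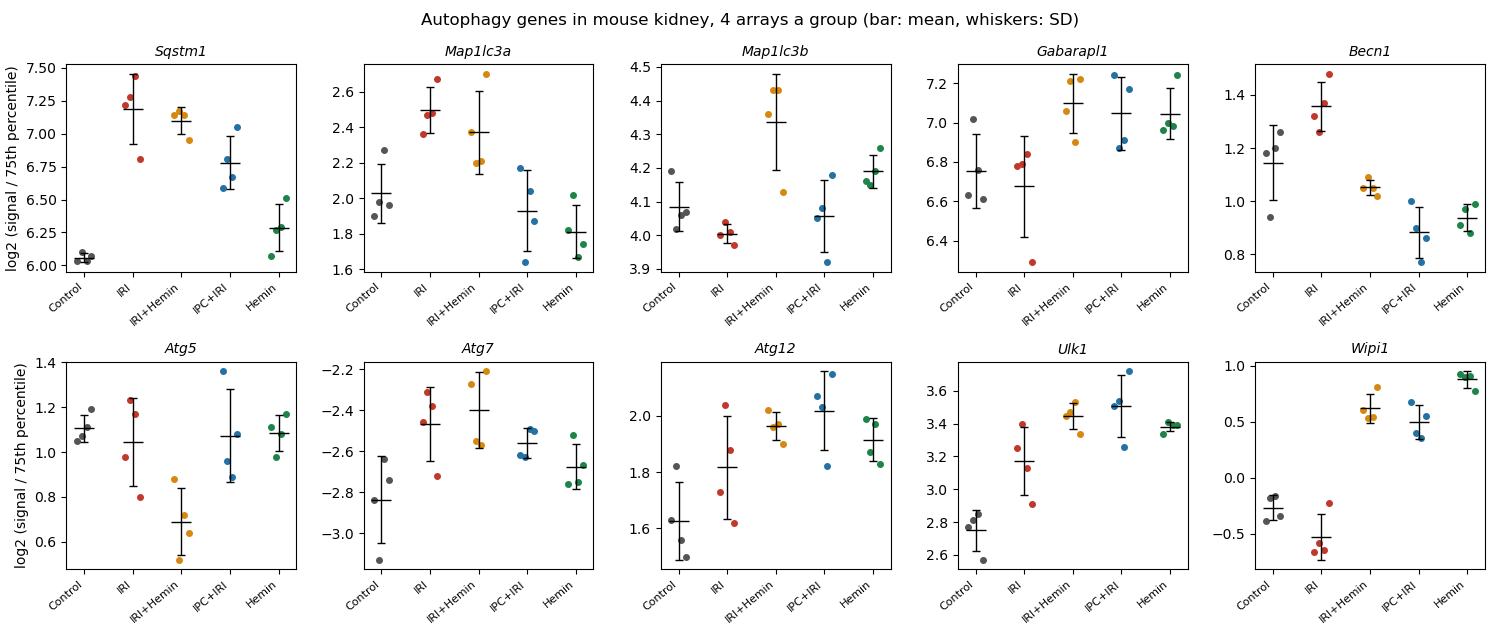
Level of each of the 10 genes on every array (y axis, log2 of signal over the array's 75th percentile) by group (x axis), with the mean as a bar and the SD as whiskers, 4 arrays a group. Sqstm1 lies at 6.03 to 6.10 in Control and at 6.59 or more in the 3 groups with IRI, and Wipi1 lies below 0 in Control and IRI and above 0 in the other groups.

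Sqstm1, the cargo receptor p62, had the clearest response to injury. It read 6.03, 6.10, 6.03 and 6.07 on the Control arrays and 7.22, 7.28, 7.44 and 6.81 on the IRI arrays. Every IRI array was above every Control array, with replicate 4 the lowest of the injured kidneys. The gene was 2.19-fold higher in IRI than in Control (log2 fold change 1.13, SE 0.131, 95% interval 0.85 to 1.41, adjusted p = 2.24e-06). With Hemin before the injury it read 7.14, 7.17, 7.14 and 6.95, and with preconditioning 6.59, 6.81, 6.67 and 7.05. Hemin alone gave 6.07, 6.27, 6.29 and 6.51, which overlapped Control at its lowest array.

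The order of the Sqstm1 group means was IRI (7.19 ± 0.27 SD, n = 4), IRI+Hemin (7.10 ± 0.103), IPC+IRI (6.78 ± 0.20), Hemin (6.29 ± 0.178) and Control (6.06 ± 0.033). IRI and IRI+Hemin did not differ beyond their spread (log2 difference -0.09, 95% interval -0.36 to 0.19, adjusted p = 0.613), nor did Hemin and Control (0.23, -0.05 to 0.51, adjusted p = 0.184). IPC+IRI was lower than IRI by 0.41 on the mean (log2 fold change -0.41, SE 0.131, adjusted p = 0.0179), although IRI replicate 4 lay within the preconditioned arrays. That call was lost without IRI replicate 3 (log2 fold change -0.32) and without IPC+IRI replicate 1 (-0.34) or 3 (-0.37). IPC+IRI was still above Control (0.72, SE 0.131, adjusted p = 0.000172). On a Hemin background the injury again went with more Sqstm1, 1.76-fold in IRI+Hemin over Hemin (0.81, SE 0.132, adjusted p = 0.000108).

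Among the LC3 and GABARAP genes, Map1lc3a was called higher in IRI than in Control and Map1lc3b and Gabarapl1 were not, a difference between genes that was not tested. Map1lc3a, which encodes LC3A, read 1.90, 1.98, 2.27 and 1.96 in Control and 2.36, 2.47, 2.48 and 2.67 in IRI, with no overlap (log2 fold change 0.47, SE 0.136, adjusted p = 0.00803). It read 2.17, 1.64, 2.04 and 1.87 in IPC+IRI, all below the IRI arrays (-0.56, SE 0.136, adjusted p = 0.00296), and did not differ there from Control (-0.10, 95% interval -0.38 to 0.19, adjusted p = 0.575). In IRI+Hemin it read 2.37, 2.20, 2.21 and 2.70, which was higher than Hemin alone at 1.82, 2.02, 1.67 and 1.74 (0.56, SE 0.137, adjusted p = 0.00309). IRI+Hemin and IRI overlapped for this gene (-0.12, 95% interval -0.41 to 0.16, adjusted p = 0.493).

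Map1lc3b, which encodes LC3B, the usual marker protein of autophagosomes, read 4.19, 4.02, 4.06 and 4.07 in Control and 4.00, 4.04, 4.01 and 3.97 in IRI (-0.08, 95% interval -0.26 to 0.10, adjusted p = 0.472). It was higher in IRI+Hemin, at 4.36, 4.43, 4.43 and 4.13, than in IRI, with no overlap (0.33, SE 0.087, adjusted p = 0.00485). Gabarapl1, another protein of this family, read 6.63, 7.02, 6.76 and 6.61 in Control and 6.78, 6.79, 6.84 and 6.29 in IRI (-0.08, 95% interval -0.37 to 0.21, adjusted p = 0.655). It was called higher than in IRI both in IRI+Hemin (0.42, SE 0.137, adjusted p = 0.019) and in IPC+IRI (0.37, SE 0.137, adjusted p = 0.0364). Both of these calls were lost without IRI replicate 4, whose value of 6.29 was the lowest of all arrays (0.29 and 0.24). The IPC+IRI call was also lost without IPC+IRI replicate 1 (0.31) or 4 (0.33), and the IRI+Hemin call without IRI+Hemin replicate 2 or 4 (0.38 in each case).

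Ulk1, the kinase that starts the pathway, was higher than Control in every other group in which it was compared with it. It read 2.77, 2.81, 2.85 and 2.57 in Control and 3.25, 3.40, 3.13 and 2.91 in IRI (0.42, SE 0.112, adjusted p = 0.0045). Hemin alone gave 3.34, 3.41, 3.39 and 3.39 (0.63 over Control, SE 0.112, adjusted p = 0.000527), and IPC+IRI gave 3.51, 3.54, 3.26 and 3.72 (0.76, SE 0.112, adjusted p = 2.47e-05). None of these groups overlapped Control. IPC+IRI was also called above IRI (0.34, SE 0.112, adjusted p = 0.0202), although the arrays overlapped, and the call was lost without IRI replicate 4 (0.25) or IPC+IRI replicate 4 (0.27). IRI+Hemin read 3.45, 3.47, 3.53 and 3.34 and did not differ from Hemin beyond the spread (0.07, 95% interval -0.17 to 0.30, adjusted p = 0.646). The difference between the injury's effect with and without Hemin was -0.35 (95% interval -0.69 to -0.02), which had an unadjusted p of 0.0403 in limma and an adjusted p of 0.199.

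Wipi1, which binds phosphatidylinositol 3-phosphate on the forming membrane, had the widest range of group means among the members, 1.41 on the log2 scale against a within-group SD of 0.14. It read -0.39, -0.18, -0.16 and -0.34 in Control and -0.66, -0.58, -0.65 and -0.23 in IRI (-0.26, SE 0.112, adjusted p = 0.0564). The levels were 0.93, 0.90, 0.91 and 0.77 in Hemin, 0.60, 0.53, 0.54 and 0.81 in IRI+Hemin, and 0.68, 0.40, 0.35 and 0.55 in IPC+IRI. These 12 arrays all lay above the 8 arrays of Control and IRI, which were the arrays of the first scan day, so scan day and treatment cannot be told apart for this split. The gene was 2.21-fold higher in Hemin than in Control (1.14, SE 0.113, adjusted p = 1.03e-05), 2.22-fold higher in IRI+Hemin than in IRI (1.15, SE 0.112, adjusted p = 2.04e-06) and 2.04-fold higher in IPC+IRI than in IRI (1.03, SE 0.112, adjusted p = 6.11e-06). IPC+IRI was also above Control (0.76, SE 0.112, adjusted p = 2.34e-05). Within the last scan day, IPC+IRI was below Hemin (-0.38, SE 0.112, adjusted p = 0.0133), with no overlap of the arrays. IRI+Hemin and Hemin, neighbours in the order of the means, were not separated by the test (-0.26, 95% interval -0.49 to -0.02, adjusted p = 0.0712).

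The 5 gene names whose levels were most like Wipi1 over the 20 arrays, among 14533 other names well above background on all of them, were Iah1 (Pearson r 0.955), 4933425L03Rik (0.952), Cd164 (0.95), Ift57 (0.949) and Trdmt1 (0.944). They share with it the lower group means in Control and IRI, as for Iah1, with means of 1.44 and 1.30 there against 2.43 for Hemin, 2.18 for IRI+Hemin and 2.10 for IPC+IRI. The arrays share slides and scan days within groups, and the correlations are given as a description.

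Becn1, the Beclin 1 subunit of the lipid kinase complex, read 1.18, 0.94, 1.20 and 1.26 in Control and 1.32, 1.26, 1.37 and 1.48 in IRI. The groups touched at 1.26, and the call of a rise was marginal (0.21, SE 0.087, adjusted p = 0.0484). It was lost without Control replicate 1 (0.22), 2 (0.15) or 3 (0.23), without IRI replicate 1 (0.22), 3 (0.21) or 4 (0.17), and with the replicate number as a block. The probe across the exon junction was not called on its own in this comparison (0.21, SE 0.091, adjusted p = 0.0699). The gene's value was lower than in IRI in IPC+IRI, at 1.00, 0.90, 0.77 and 0.86 (-0.47, SE 0.087, adjusted p = 0.000352), and in IRI+Hemin, at 1.05, 1.09, 1.05 and 1.02 (-0.31, SE 0.087, adjusted p = 0.00845), with no overlap in either case. IPC+IRI was also called below Control (-0.26, SE 0.087, adjusted p = 0.0163), a call lost without Control replicate 4 or IPC+IRI replicate 3 (-0.22 in each case). With no scaling between arrays, the IRI+Hemin difference from IRI read 0.06, where the median of all names moved from 0.08 to 0.45, and the IPC+IRI difference from Control read 0.20, where it moved from -0.11 to 0.35. With the mean of log2 probes, which gives the dim second probe of the gene equal weight, IPC+IRI against Control read 0.38. In the deposited matrix, which has blanks, IRI against Control read -0.20 and IRI+Hemin against IRI 0.15. Hemin alone read 0.91, 0.97, 0.88 and 0.99 (-0.21 against Control, adjusted p = 0.0715).

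Atg5, the acceptor of ATG12 in the conjugate that promotes LC3 lipidation, was lower in IRI+Hemin than in any other group with which it was compared. It read 0.88, 0.52, 0.72 and 0.64 there, against 1.11, 0.98, 1.08 and 1.17 in Hemin (-0.39, SE 0.117, adjusted p = 0.011) and 0.98, 1.23, 1.17 and 0.80 in IRI (-0.36, SE 0.116, adjusted p = 0.0194). The IRI+Hemin and IRI arrays overlapped, and the call was lost without IRI replicate 2 (-0.29) or 3 (-0.31) or IRI+Hemin replicate 2 (-0.30). With no scaling between arrays the difference was 0.01, below the median of 0.45 over all names in that setting. In IRI itself Atg5 did not differ from Control at 1.05, 1.07, 1.11 and 1.19 (-0.06, 95% interval -0.30 to 0.18, adjusted p = 0.692).

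Atg12, the ubiquitin-like partner of ATG5, read 1.63, 1.82, 1.56 and 1.5 in Control and 2.07, 2.03, 1.82 and 2.15 in IPC+IRI (0.39, SE 0.104, adjusted p = 0.00403). Hemin alone read 1.99, 1.87, 1.97 and 1.83 and was called higher than Control (0.29, SE 0.104, adjusted p = 0.039), a call lost without Control replicate 1 (0.29), 3 (0.27) or 4 (0.24) and without Hemin replicate 1 (0.26), 2 (0.30) or 3 (0.27). The IRI arrays lay between, from 1.62 to 2.04 (0.19, 95% interval -0.03 to 0.41, adjusted p = 0.136). Of the 3 Atg12 probes, only the brightest was called in Hemin vs Control (0.32, SE 0.117, adjusted p = 0.0412). The probes across an exon junction were not called there (0.07 and 0.20, adjusted p = 0.604 and 0.189). In IRI+Hemin vs Hemin the junction probes were called higher (0.33 each, adjusted p = 0.0121 and 0.0272), while the gene read 0.05. Atg7, the E1-like enzyme of both conjugation reactions, read -2.84, -3.13, -2.64 and -2.74 in Control and -2.46, -2.31, -2.38 and -2.72 in IRI (0.37, SE 0.122, adjusted p = 0.0176). The groups overlapped through IRI replicate 4, and the call was lost without Control replicate 2 (0.27) or IRI replicate 2 (0.32). Of the Atg7 probes, that of the RefSeq transcript was not called (0.01, SE 0.135, adjusted p = 0.971). The probe of a separate cDNA was (0.96, SE 0.26, adjusted p = 0.00505).

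**Figure D2:**
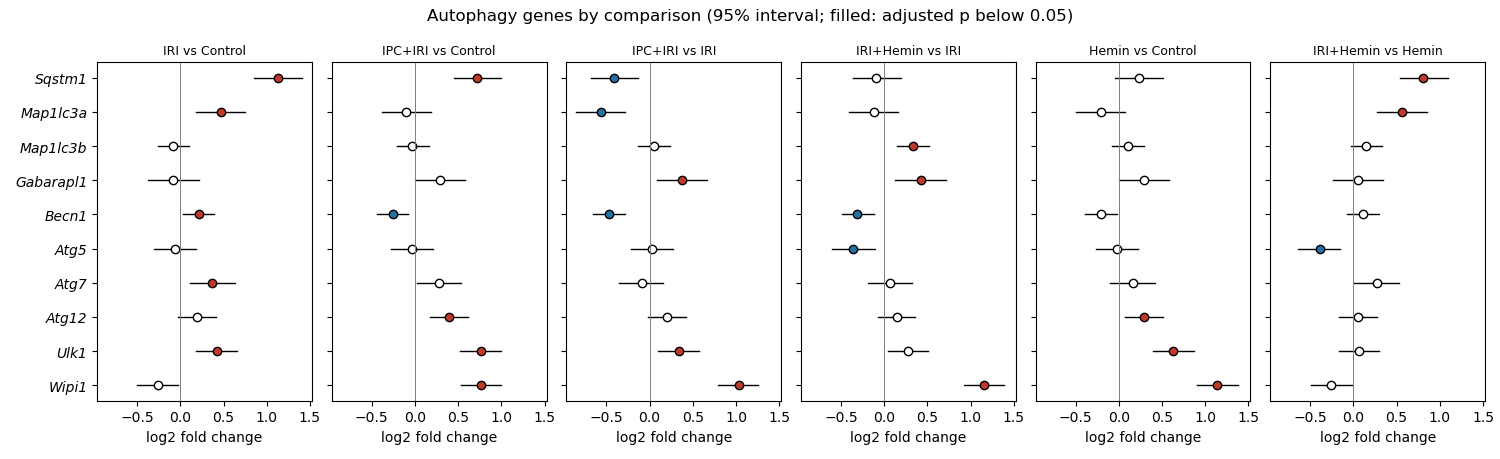
Log2 fold change (x axis, first group minus second) of each of the 10 genes (y axis) in 6 comparisons, with 95% intervals from limma, filled red where called higher and blue where called lower. Sqstm1 is called in 4 of the 6 panels, and Wipi1 is called in the 4 panels that set arrays of the first scan day against later ones.

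Counted over the members, 5 of 10 were called higher in IRI than in Control and 0 lower, against 16.4% of the 17719 gene names tested called higher and 35% lower. Their median log2 fold change was 0.20, beside -0.19 over all names tested. The 5 were Sqstm1, Map1lc3a, Ulk1, Atg7 and Becn1. For Atg7 and Becn1 the probe of the RefSeq transcript was not called on its own in limma (0.01 and 0.21, adjusted p = 0.971 and 0.0699). Without Control replicate 2 the count was 3, the lowest with any array left out. It was 2 with normexp background correction (Sqstm1 and Ulk1) and 2 with no scaling between arrays (Sqstm1 and Map1lc3a). SAM, the test named in the study's methods, called 1, Sqstm1. In the deposited matrix the 1 member called was Wipi1, lower in IRI (-0.43), and none of the 5 was called, while Sqstm1, blank on 11 arrays, was not tested there.

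In IPC+IRI against Control, 4 members were called higher (22.2% of all names) and 1 lower (33.7%), with a median of 0.29 beside -0.11. Against IRI, preconditioning went with 3 higher (25.9%) and 3 lower (17.9%), with a median of 0.04 beside 0.09. Gabarapl1, Ulk1 and Wipi1 were higher there, and Sqstm1, Map1lc3a and Becn1 lower. IRI+Hemin against IRI gave 3 higher (25.8%) and 2 lower (18.3%), with a median of 0.11 beside 0.08, and 3 in all without IRI+Hemin replicate 2. The counts of IRI+Hemin against IRI lie near the shares over all names. In each comparison of this paragraph fewer members were called with SAM and in the deposited matrix, as given below.

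Hemin against Control gave 3 members higher (18.3%) and 0 lower (17.6%), namely Wipi1, Ulk1 and Atg12, with a median of 0.20 beside 0.05. The count was 5 without Control replicate 2 and 2 at the lowest with another array left out. It was higher with no scaling between arrays and lower in the deposited matrix. IRI+Hemin against Hemin gave 2 higher (15.5%) and 1 lower (29.5%), and the count of 3 became 5 without IRI+Hemin replicate 4. IPC+IRI against Hemin, both of the last scan day and compared after the data had been seen, gave Sqstm1 higher (0.49, SE 0.132, adjusted p = 0.00704) and Wipi1 lower, where 12.6% of all names were higher and 24.4% lower. Neither was called with SAM or with no scaling between arrays. In the interaction of Hemin and IRI, limma called 0 of the 10 members against 7.66% of all names, and 1 member, Ulk1, had an unadjusted p below 0.05. The comparisons with Control share its 4 arrays, and those with IRI share the 4 IRI arrays.

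Single probes of a gene did not always move together. The Gabarapl1 probe across the exon junction, printed above, read 2.52, 3.19, 3.15 and 2.85 in Control and 3.84, 3.87, 3.83 and 3.73 in Hemin. All Hemin arrays were above Control (log2 fold change 0.89, SE 0.195, adjusted p = 0.00211 over all probes), whereas the other Gabarapl1 probe overlapped (0.26, SE 0.148, adjusted p = 0.179). In IRI+Hemin the junction probe read 3.93, 4.01, 3.92 and 3.45 against 2.70, 2.49, 2.76 and 3.51 in IRI (0.96, SE 0.195, adjusted p = 0.000667), with IRI replicate 4 inside the range of IRI+Hemin. The gene's value, a mean on the linear scale, followed the other probe, whose signal was the larger. The difference between the probes' changes was not tested.

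The coding probe of Map1lc3b read 2.86, 3.15, 2.95 and 2.91 in Control and was above that in all other groups in which it was compared with Control. It rose in IRI at 3.18, 3.27, 3.20 and 3.41 (0.30, SE 0.11, adjusted p = 0.0309), in Hemin (0.35, SE 0.11, adjusted p = 0.0199) and in IPC+IRI (0.36, SE 0.11, adjusted p = 0.0099), with no overlap in any of them. The other Map1lc3b probe read 4.87, 4.55, 4.68 and 4.70 in Control and 4.51, 4.54, 4.53 and 4.37 in IRI (-0.21, SE 0.099, adjusted p = 0.0848), so the value of 4.00 to 4.08 for the gene in IRI and Control joins probes with changes of opposite sign. In IRI+Hemin both probes were above IRI (0.45 and 0.28, adjusted p = 0.00269 and 0.0272).

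The pair of Ulk1 probes, both of the same RefSeq transcript, were each called higher than Control in IRI (0.39 and 0.51, adjusted p = 0.025 and 0.00087) and in IPC+IRI (0.85 and 0.33, adjusted p = 4.86e-05 and 0.0176). In Hemin against Control the first was called (0.72, SE 0.136, adjusted p = 0.000751) and the second was not (0.20, SE 0.111, adjusted p = 0.157). In IPC+IRI against IRI they had opposite signs, 0.47 for the first (SE 0.136, adjusted p = 0.00907) and -0.19 for the second (SE 0.11, adjusted p = 0.173). The gene's calls in Hemin against Control and in IPC+IRI against IRI were thus calls of the first probe and not of the second.

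The pair of Wipi1 probes gave the same split by scan day. The junction probe was 1.00 higher in Hemin than in Control (SE 0.127, adjusted p = 6.7e-05) and 1.44 higher in IRI+Hemin than in IRI (SE 0.127, adjusted p = 6.43e-07), and the other probe 1.20 and 1.03 higher. They parted between IRI+Hemin and Hemin, where the other probe was lower (-0.45, SE 0.118, adjusted p = 0.00531) and the junction probe was 0.24 higher (SE 0.127, adjusted p = 0.14). The junction probe of Becn1 was lower in IPC+IRI than in IRI (-0.48, SE 0.091, adjusted p = 0.000436), and the second Becn1 probe was well above background on 10 of the 20 arrays. That second probe, of a separate cDNA, was so on 0 Control and 0 Hemin arrays, 3 IRI, 3 IRI+Hemin and 4 IPC+IRI arrays. Against Control or Hemin it could pass the filter only through the group with injury, so no direction is taken from it. The junction probe was called lower in IPC+IRI than in Control (-0.27, SE 0.092, adjusted p = 0.0175). For Atg7 the probe of the RefSeq transcript did not separate IRI from Control (0.01, SE 0.135, adjusted p = 0.971), and a probe of a separate cDNA under the same gene name was higher in IRI (0.96, SE 0.26, adjusted p = 0.00505).

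Of the 18 member probes, 17 were well above background on at least 3 arrays of every group, the exception being the second Becn1 probe, which is left out of the counts. Of the 17, 7 were called in IRI vs Control (49% of all probes tested), 12 in IPC+IRI vs Control (56.2%) and 7 in IPC+IRI vs IRI (46.5%). The counts were 11 in IRI+Hemin vs IRI (46.7%), 6 in Hemin vs Control (36.1%) and 7 in IRI+Hemin vs Hemin (43.9%). The shares over all probes used the looser filter of at least 3 arrays of either group well above background. Probes of 1 gene are not independent, and the members' shares lie on both sides of those over all probes.

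**Figure D3:**
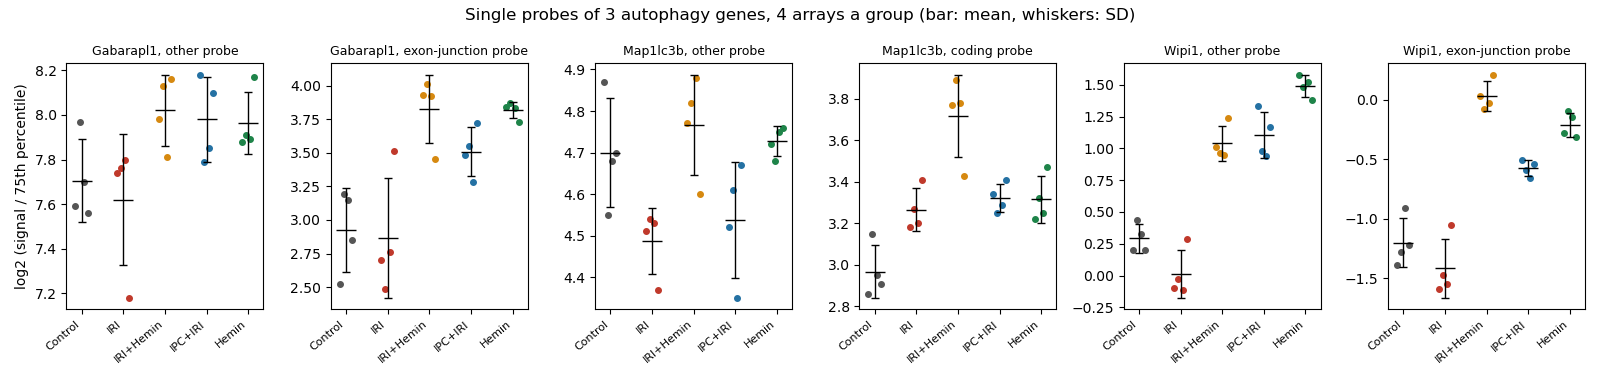
Level of single probes of Gabarapl1, Map1lc3b and Wipi1 on every array (y axis, log2 of signal over the array's 75th percentile) by group (x axis), with mean and SD, 4 arrays a group. The Map1lc3b coding probe is higher in IRI than in Control while the other probe is at 4.37 to 4.54 in IRI and 4.55 to 4.87 in Control.

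Beyond the members, 68 further genes of the pathway were listed in 5 groups, and 67 were on the array, 11 of them under an older name. In IRI vs Control 19 of the 67 were higher and 10 lower (28.4% and 14.9%), against 16.4% and 35% of all names, with a median of 0.01. Of the regulators of nutrient and energy control, 7 of 12 were higher and 0 lower, with a median of 0.32. Sesn1 and Sesn2, sestrins that restrain the mTOR complex, rose by log2 fold changes of 0.75 (SE 0.138, adjusted p = 0.000217) and 0.72 (SE 0.169, adjusted p = 0.00164). Tsc1, a subunit of another mTOR inhibitor, rose by 0.55 (SE 0.152, adjusted p = 0.0055).

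Among the cargo receptors and mitophagy genes, 5 of 11 were higher in IRI than in Control and 2 lower (45.5% and 18.2%, against 16.4% and 35% of all names). Optn, an ubiquitin-binding receptor, was 0.82 higher (SE 0.12, adjusted p = 2.32e-05), while Wdfy3, an adaptor for aggregates, fell by 0.88 and Fundc1, a mitochondrial receptor, fell by 0.60. Of the conjugation genes 1 of 10 was higher and 3 lower (10% and 30%), both below the shares of all names. The LC3-processing proteases Atg4d and Atg4c fell by 0.97 and 0.96 (adjusted p = 2.18e-06 and 9.28e-06), and the E2-like enzyme Atg10 fell by 0.66.

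Of the 16 initiation genes 2 were higher and 2 lower (12.5% each, against 16.4% and 35% of all names). Vmp1, a membrane protein of the endoplasmic reticulum, was 0.88 higher (SE 0.132, adjusted p = 3.27e-05), and Pik3r4, a subunit of the Beclin 1 complex, fell by 0.45 (SE 0.095, adjusted p = 0.000738). Of the 18 lysosomal genes 4 were higher and 3 lower (22.2% and 16.7%). Among the transcription factors of that list, Tfe3 was 1.16 higher (SE 0.143, adjusted p = 4.21e-06), Mitf fell by 1.77 (SE 0.313, adjusted p = 0.000151), and the fusion protein Stx17 fell by 0.60. Mitf was uneven in IRI, from -5.75 to -3.65 (SD 0.979), against an SD of 0.16 in Control.

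In IPC+IRI vs Control 17 of the 67 genes were higher and 18 lower (25.4% and 26.9%, against 22.2% and 33.7% of all names). In IPC+IRI vs IRI the counts were 14 and 15 (20.9% and 22.4%, against 25.9% and 17.9%), and in IRI+Hemin vs IRI 14 and 18 (20.9% and 26.9%, against 25.8% and 18.3%). Hemin vs Control gave 14 and 8 (20.9% and 11.9%, against 18.3% and 17.6%), and IRI+Hemin vs Hemin 13 and 18 (19.4% and 26.9%, against 15.5% and 29.5%). In IPC+IRI vs Hemin 11 were higher and 17 lower (16.4% and 25.4%, against 12.6% and 24.4%). Ddit4, a stress-induced inhibitor of mTOR signalling, was 2.29 higher in IPC+IRI than in Control (SE 0.316, adjusted p = 1.27e-05) and 1.10 higher in IRI+Hemin than in Hemin (SE 0.316, adjusted p = 0.00898). Prkaa2, a catalytic subunit of the AMP-activated kinase, fell by 1.39 in Hemin against Control and by 1.42 in IPC+IRI against IRI (adjusted p = 0.000279 and 9.98e-05).

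Mitf, which was lower in IRI, was higher than in IRI with either preconditioning (1.11, SE 0.313, adjusted p = 0.0084) or Hemin (1.36, SE 0.313, adjusted p = 0.00205). Both changes use the same uneven IRI arrays, at -5.75 to -3.65 with a median of -3.90. Mtor fell by 0.84 in IRI+Hemin against IRI. In Hemin alone Wdr45b, a relative of Wipi1, was 0.75 higher than Control, the conjugation scaffold Atg16l1 0.71 higher, and the lysosomal membrane protein Lamp2 0.61 higher, while the mitophagy receptor Bnip3l fell by 0.48. In IRI+Hemin against Hemin, Bnip3 was 0.67 higher, while Stx17 fell by 0.90, Atg4c by 1.06 and Ulk2 by 0.84. Other genes taken by the same rule in IPC+IRI vs Control were Calcoco1 (-1.35), Atg4d (-1.07) and Vmp1 (0.89). In IPC+IRI vs IRI they were Atg10 (0.70) and Atg2b (0.55), and in IRI+Hemin vs IRI Atg10 (0.47) and Sh3glb1 (-0.86). Each of these is a called log2 fold change. The rule also took Foxo3 in IPC+IRI vs Control, well above background on 2 of 4 Control arrays and on all 4 IPC+IRI arrays. Foxo3 passed the filter only through IPC+IRI, so no direction is taken from it.

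**Figure D4:**
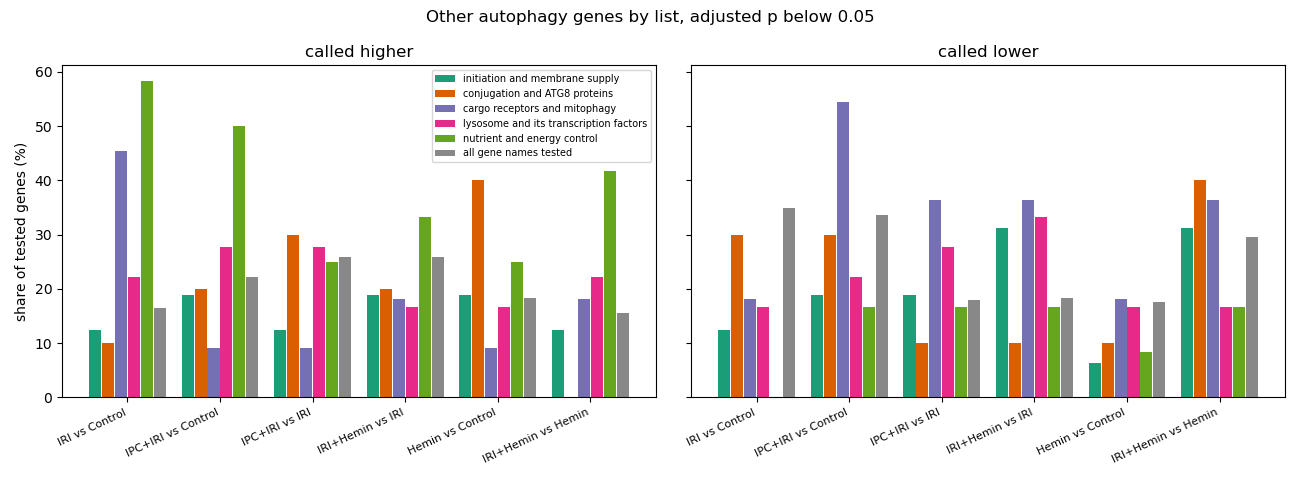
Share of the tested genes (y axis, percent) of each pathway list called higher (left) or lower (right) in 6 comparisons (x axis), beside all gene names tested in grey. In IRI vs Control the nutrient and energy control genes reach 58.3% higher, against 16.4% of all names.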

How the data were processed

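Kidney RNA of 20 samples was measured on one-colour Agilent arrays. The intensity values are the scanner output as the authors deposited it, made with Agilent Feature Extraction 9.5.3.1 per the file headers, which subtracts background within an array. The log2 values are a matrix deposited by the authors, which for 33598 single-spot probes lay within 0.001 of the log2 processed signal in 100% of values present, with 18.1% blank. The paper's methods give no scaling between arrays. Here spots flagged by the software as non-uniform or outlying were left out, probes sharing a gene name were averaged on the linear scale, each array was divided by the 75th percentile of its 43379 non-control spots and log2 was taken. A gene was tested with at most 1 missing value and at least 3 arrays of either group well above background. All 20 arrays, grouped by their labels, entered 1 fit in limma 3.58.1 (R 4.3.3, data.table, version 1.17.8, jsonlite 2.0.0) with 15 residual degrees of freedom and Benjamini-Hochberg adjustment over all names, tested on simulated data. The number of arrays limits the precision. The members, lists and tests were chosen with earlier results of these data known. List genes were named where called, with groups that did not overlap, as the 3 largest changes per list in IRI vs Control and the largest 1 elsewhere. A gene that this rule named is not reported here. Deviations of same-numbered arrays from their group means had correlations from -0.38 to 0.15 over 28 pairs, with 5 above 0.1. In IRI vs Control they were all positive (0.13, 0.05, 0.15 and 0.11). Alternatives covered background, scaling, probe summary, filter, test and each array left out. One listed gene, Atg9a, was not matched and is not analysed here.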

Additional observations from a re-analysis of the deposited data

Results flagged for a closer look

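Among 50 sets of 4 arrays (10 genes in 5 groups), 3 held an array far from its neighbours, and chance marks about 1 in 20. Sqstm1 read 6.95 in IRI+Hemin replicate 4, where the other arrays lay at 7.14 to 7.17. Gabarapl1 read 6.29 in IRI replicate 4, below the others at 6.78 to 6.84, and 7.24 in Hemin replicate 4, above the others at 6.96 to 7. IRI replicate 4 had the highest 75th percentile of intensity of its group (292.7), and IRI+Hemin replicate 4 the lowest of its group (180.4).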

How the results depend on the processing

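Of the members' single log2 fold changes under alternatives other than leaving out an array, 999 kept their direction and side of the threshold, 118 were no longer called, 37 became called and 8 turned sign. The turns were Becn1 with no scaling between arrays (0.20 in IPC+IRI vs Control, 0.06 in IRI+Hemin vs IRI), with the mean of log2 probes (0.38 in IPC+IRI vs Control, 0.68 in IPC+IRI vs Hemin) and in the deposited matrix (-0.20 in IRI vs Control, 0.15 in IRI+Hemin vs IRI), Atg5 with no scaling (0.01 in IRI+Hemin vs IRI) and Ulk1 in the matrix (-0.03 in IPC+IRI vs IRI). No scaling also moved the median of all names in Hemin vs Control from 0.05 to 0.62, in IRI+Hemin vs IRI from 0.08 to 0.45 and in IPC+IRI vs Control from -0.11 to 0.35, so the 3 turns under it still lay below that median. In the matrix 10 of the 18 member probes had blanks, among them Sqstm1 on 11 arrays, and gene means there join fewer values.

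The members called in IRI vs Control were 5 and became 2 with normexp or no scaling, 3 with the brightest probe, with the compared arrays alone or with an adjusted two-group test of each gene, and 1 in the matrix, with SAM or at a 2-fold cutoff. The 6 of IPC+IRI vs IRI became 3 with no scaling, the compared arrays alone or the two-group test, adjusted or not, 2 in the matrix, 1 at 2-fold and 0 with SAM. The 5 of IPC+IRI vs Control became 1 in the matrix and 0 with SAM or at 2-fold. The 5 of IRI+Hemin vs IRI became 3 with quantile normalization, the compared arrays alone or the adjusted two-group test, 2 in the matrix, and 1 with SAM or at 2-fold. The 3 of Hemin vs Control became 7 with no scaling, 6 with the unadjusted two-group test, and 1 in the matrix or at 2-fold. The 3 of IRI+Hemin vs Hemin became 1 with no scaling, 5 with the mean of log2 probes or the adjusted two-group test, 6 with the unadjusted one, and 0 with SAM or at 2-fold. The 2 of IPC+IRI vs Hemin, a comparison chosen after seeing the data, became 0 with no scaling, SAM or 2-fold. Where no cause is named, the cause was not tested. Leaving out 1 array gave 3 to 5, 4 to 7, 4 to 6, 3 to 5, 2 to 5, 3 to 5 and 2 to 2 members in these comparisons, in this order.

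The replicate block left 4, 5, 5, 5, 2, 3 and 2 members in the same order, and it dropped the calls of Becn1 in IRI vs Control, Gabarapl1 in IPC+IRI vs IRI and Atg12 in Hemin vs Control. Over all names, limma called 6669 to 10258 in the 7 comparisons of groups, SAM 792 to 2845 and normexp 2833 to 6001, and in the interaction limma called 1460, normexp 145 and no scaling 405. The slide as a random block could not be fitted, since each group had its own slide. Wipi1 was called in the deposited matrix too (1.36 in Hemin vs Control).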
